A study of Mus musculus with 12 samples.

Results

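The 10 genes described here encode C-type lectin receptors of myeloid cells and the subunits of a related hepatic receptor: *Clec4n*, *Clec4d*, *Clec4e*, *Clec5a*, *Clec7a*, *Clec12a*, *Clec4a2*, *Clec4b1*, *Asgr1* and *Asgr2*. They were taken by gene symbol from a table of 54532 genes, where each symbol stood on 1 row. Of the 10, 9 passed the filter on low counts and were tested among 14894 genes. *Asgr1* was the exception.

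C-type lectin receptors hold a carbohydrate-recognition fold with which myeloid cells sense fungal and mycobacterial glycans as well as material from dying cells. Activating members pass their signal through an ITAM, an activation motif on an adaptor or in the receptor's own tail, to the kinase SYK and then to the adaptor CARD9. Inhibitory members carry an ITIM, which recruits phosphatases. The asialoglycoprotein receptor, built from *Asgr1* and *Asgr2* products, is known best as the hepatocyte receptor that clears glycoproteins lacking terminal sialic acid.

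The cells came from the bone marrow of C57BL/6 mice of WT genotype and were cultured with GM-CSF and IL-6, cytokines that drive immature myeloid cells of the suppressor type (MDSC), and harvested at day 5. They were exposed to DMSO vehicle, to 10 µM or to 50 µM indole-3-propionic acid (IPA), a tryptophan metabolite made by gut bacteria, with 4 RNA-seq libraries in each of the 3 groups. The design asks how IPA affects the generation of MDSC from bone marrow. The paper reports slightly lower cell viability in such cultures at the higher dose. For that reason its own expression analysis centred on the lower dose. Whether lower viability has a part in the differences seen here at the higher dose was not tested. No sort of the cells is stated, so the cultures may be mixtures, and the labels do not tie libraries to animals. The p-values measure the spread between these libraries, which may be technical.

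Each library held between 20451312 and 28038612 reads counted on genes. Levels are given in CPM, counts scaled to a common library size after TMM normalization over the 12 libraries, and comparisons between genes in TPM, which also divides by exon length. Fold changes are log2 values from edgeR's quasi-likelihood test, with p-values adjusted by the Benjamini-Hochberg method across the whole set of tested genes and calls made at 0.05. In bulk cultures, fewer cells of a type and less RNA per cell cannot be told apart.

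Per length, *Clec4n*, which encodes dectin-2, a receptor for fungal mannans, was by far the most abundant of the 10. Its level with vehicle was 2267 ± 115 TPM (SD, n = 4), which was 60.0% of the summed TPM of the 10 genes. *Clec7a*, encoding the β-glucan receptor dectin-1, followed with 499 ± 29.6 TPM (SD, n = 4). *Clec5a* stood at 294 and *Clec4d* at 237 TPM, and up to this point the ranges of neighbours in the order did not overlap. *Clec12a* (135 TPM), *Clec4e* (124), *Clec4a2* (117) and *Asgr2* (94.7) lay close together, and each neighbouring pair of these 4 overlapped. *Clec4b1* was lower at 10.1 ± 1.92 TPM (SD, n = 4). The length used joins the exons of all annotated transcripts, 4965 bases for *Clec4e* and 5528 for *Clec12a* against 1599 for *Clec4d*. In CPM with vehicle, *Clec4e* (209) and *Clec12a* (253) stood above *Clec4d* (129), so their order depends on these lengths.

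*Clec4n* and *Clec7a* held the top places and *Clec4b1* the ninth in all groups. At 50 µM *Asgr2* lay at 46.5 TPM, and its range no longer reached that of *Clec4e* (96.4 TPM), the next gene above it. *Clec4d* (232 TPM) and *Clec5a* (217 TPM) overlapped at 50 µM, as they did at 10 µM.

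**Figure D1:**
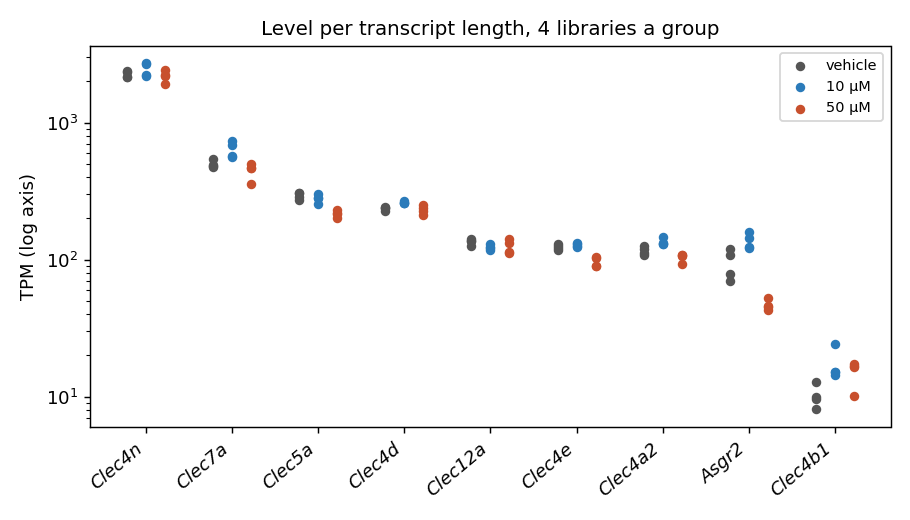
Level of the 9 members above the filter in TPM on a log axis, with 1 point per library and 3 colours for the groups (n = 4 each). *Clec4n* sits highest in every library, between 1929 and 2716 TPM, and *Clec4b1* lowest, between 8.05 and 24.4 TPM.

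*Asgr1*, the major subunit of the asialoglycoprotein receptor, was not detected in 11 of the 12 libraries. The fourth vehicle library held 5 counts. A count of 0 allows a level of up to 0.107 to 0.147 CPM in these libraries (3 counts, counting error only), and no fold was computed. *Asgr1* and *Asgr2* lie 34.7 kb apart on chromosome 11, and the *Asgr2* transcript was present in all 12 libraries, 11 of them without a read of its partner. Hepatocyte markers did not accompany it: *Alb*, *Ttr* and *Serpina1a*, 3 of the 4 listed, had no read in any library, and *Apoa1* was below the filter.

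At 10 µM IPA, 0 of the 9 tested members passed the test against vehicle. DESeq2 and limma-voom also called 0, and 4 members (*Asgr2*, *Clec7a*, *Clec4a2* and *Clec4b1*) had an unadjusted edgeR p under 0.05, each with a higher mean than with vehicle. The edgeR adjusted p of these 4 ran from 0.236 to 0.564. Among all genes, 0.329% were called higher and 0.0806% lower in this comparison, at adjusted p under 0.05. The share of all genes at an unadjusted p under 0.05 is not given here, for this or the other comparisons. The median log2 fold change of the 9 was 0.14, against -0.01 over all genes tested. The ranges of the groups were apart for 3 members (*Clec7a* and *Clec4b1* higher, *Clec5a* lower), as they were for 6.13% of all genes.

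At 50 µM IPA, *Asgr2*, *Clec4e* and *Clec5a* fell below vehicle. No member rose by edgeR, DESeq2 or limma-voom, and 1 (*Clec4b1*) had an unadjusted edgeR p under 0.05 with a higher mean. Over all genes, 6.50% were called lower and 7.00% higher. The 3 genes called were also the 3 whose groups did not overlap, which held for 20.0% of all genes. The median log2 fold change of the 9 members was -0.16, against 0.01 over all genes. Of the 9 estimates, 8 were below 0.

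Between the doses, 5 members fell from 10 to 50 µM: *Asgr2*, *Clec4e*, *Clec5a*, *Clec7a* and *Clec4a2*. In this comparison 7.85% of all genes were called lower and 7.52% higher. No member rose by any of the 3 tools, nor had any a higher mean with an unadjusted edgeR p under 0.05. These 5 were again the members with separate ranges, against 20.3% of all genes. The median of the 9 was -0.36, against 0.01 over all genes. The 3 comparisons share libraries, so their estimates for a gene are not independent of each other.

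**Figure D2:**
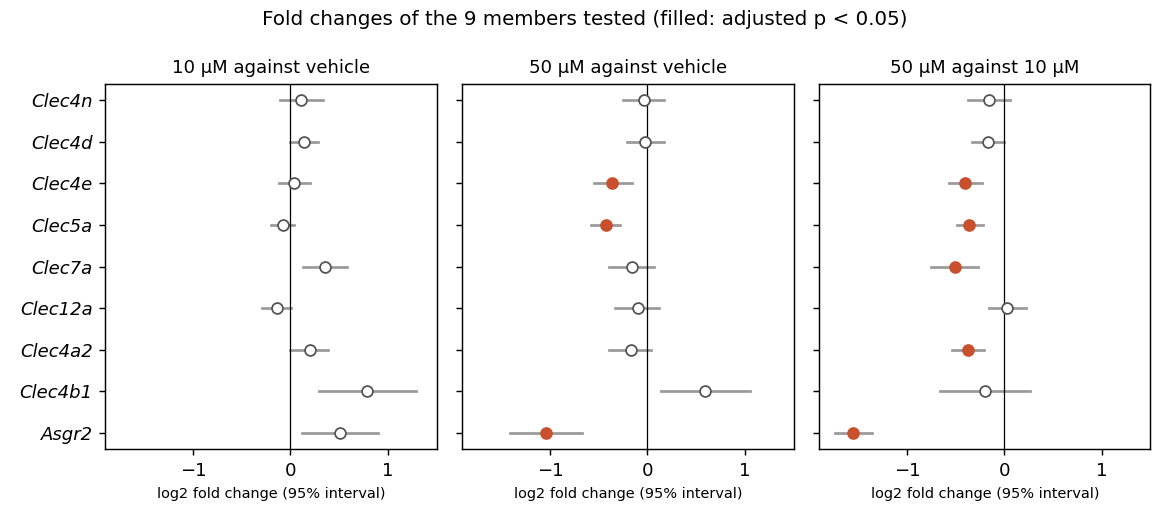
Log2 fold change of the 9 tested members in each of the 3 comparisons, with bars for the 95% interval and filled points for an adjusted p under 0.05. No point is filled at 10 µM, 3 are filled at 50 µM against vehicle and 5 at 50 against 10 µM, with *Asgr2* farthest from 0 at -1.55.

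Among the activating receptors, *Clec4e* encodes Mincle, which senses mycobacterial cord factor and pairs with the adaptor FcRγ. With vehicle its levels were 196, 203, 199 and 236 CPM in replicates 1 to 4. At 10 µM they were 229, 222, 205 and 204 CPM, within the vehicle range. At 50 µM they were 168, 146, 186 and 150 CPM, and every library lay below the 8 others. *Clec4e* fell by 0.36 on the log2 scale from vehicle to 50 µM (SE 0.09, edgeR adjusted p = 0.0214). From 10 to 50 µM it fell by 0.40 (SE 0.08, adjusted p = 0.00285). The call against vehicle was lost without replicate 2 of the 50 µM group (log2 fold change -0.31, adjusted p = 0.0693) and without replicate 4 (-0.32, adjusted p = 0.0749), with folds close to that of all libraries.

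*Clec5a* encodes MDL-1, a receptor of monocytes and neutrophils that pairs with the adaptor DAP12. Its vehicle libraries were almost level at 385, 384, 378 and 381 CPM. At 10 µM they held 342, 367, 363 and 378 CPM, just under vehicle. At 50 µM they held 293, 275, 301 and 259 CPM, all below the other groups. The log2 fold change at 10 µM was -0.08 (95% interval -0.20 to 0.04, edgeR adjusted p = 0.793). At 50 µM *Clec5a* fell by 0.43 against vehicle (SE 0.07, adjusted p = 0.00107) and by 0.36 against 10 µM (SE 0.06, adjusted p = 0.00132).

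*Clec7a* was highest at 10 µM. The vehicle libraries held 427, 408, 490 and 465 CPM. The 10 µM libraries held 633, 657, 498 and 495 CPM, the first pair well above the second and all above vehicle. The 50 µM libraries held 434, 406, 444 and 313 CPM, overlapping with vehicle and extending below it. The log2 difference of 0.35 at 10 µM did not pass (95% interval 0.13 to 0.58, edgeR adjusted p = 0.244), nor did that of -0.16 at 50 µM (-0.39 to 0.07, adjusted p = 0.364). Between the doses *Clec7a* passed, with a fall of 0.51 on the log2 scale (SE 0.11, adjusted p = 0.0055). GENCODE M21 lists *Clec7a* as a polymorphic pseudogene, a class for genes intact in some strains.

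*Clec4n* and *Clec4d*, the latter encoding MCL, a partner of Mincle, did not pass in any comparison. *Clec4n* averaged 1095 ± 96.0 CPM with vehicle, 1183 ± 168 at 10 µM and 1059 ± 142 at 50 µM (SD, n = 4). Its log2 difference at 50 µM against vehicle was -0.04 (95% interval -0.25 to 0.17), so a change of the size seen in *Clec5a* lies outside this interval. *Clec4d* averaged 129 ± 7.77, 142 ± 5.92 and 126 ± 14.1 CPM in the same order (SD, n = 4). Its difference at 50 µM against vehicle was -0.02 (-0.21 to 0.17) and against 10 µM -0.17 (-0.33 to 0.00, edgeR adjusted p = 0.168). Without the third 50 µM library, where *Clec4d* was highest, the latter was -0.24 with an adjusted p of 0.0262.

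*Clec12a* and *Clec4a2* encode the inhibitory receptors MICL, which binds uric acid crystals, and DCIR. *Clec12a* averaged 253 ± 20.3 CPM with vehicle, 230 ± 6.98 at 10 µM and 234 ± 36.2 at 50 µM (SD, n = 4), and passed in no comparison. Its 95% intervals were -0.29 to 0.01 at 10 µM and -0.33 to 0.12 at 50 µM against vehicle. *Clec4a2* libraries held 107, 104, 121 and 135 CPM with vehicle. They held 132, 146, 130 and 126 CPM at 10 µM and 103, 104, 115 and 89.8 CPM at 50 µM. The 50 µM values overlapped with vehicle and lay below all of those at 10 µM. *Clec4a2* fell by 0.37 from 10 to 50 µM (SE 0.08, edgeR adjusted p = 0.0043), while the difference of -0.17 against vehicle did not pass (-0.39 to 0.04, adjusted p = 0.286). Of its 50-base exon windows, 6.83% also occur in other genes such as *Clec4a4* and *Clec4b1*, and *Gm44132* overlaps it on the same strand, so its counts are less certain than those of *Clec4e* or *Clec5a*, which share none.

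*Clec4b1*, which encodes DCAR and pairs with FcRγ, was the least abundant member tested, with between 58 and 185 counts per library. Vehicle libraries held 2.53, 2.45, 3.41 and 2.31 CPM. The 10 µM libraries held 6.70, 4.02, 3.99 and 3.71 CPM, all above vehicle. The 50 µM libraries held 4.30, 4.47, 2.86 and 4.37 CPM, above vehicle except for the third. The log2 differences of 0.79 at 10 µM (95% interval 0.29 to 1.29, edgeR adjusted p = 0.236) and 0.59 at 50 µM (0.14 to 1.05, adjusted p = 0.0797) did not pass. Without the third library the latter was 0.72, with an adjusted p of 0.0401. Of its exon windows, 8.68% are shared with *Clec4a2*.

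*Asgr2*, the minor subunit of the asialoglycoprotein receptor, had the largest falls among the members called. Vehicle libraries held 40.7, 35.9, 59.1 and 69.0 CPM. The 10 µM libraries held 68.0, 65.0, 83.9 and 73.7 CPM. The 50 µM libraries held 27.3, 23.8, 24.5 and 23.5 CPM, a narrow band below all 8 others. *Asgr2* fell by 1.04 on the log2 scale from vehicle to 50 µM (SE 0.17, edgeR adjusted p = 0.00161), to 0.486 of the vehicle level. Between the doses it fell by 1.55 (SE 0.09, adjusted p = 2.41e-08). At 10 µM the difference from vehicle was 0.51 (95% interval 0.12 to 0.90), with an adjusted p of 0.38 and overlapping ranges.

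**Figure D3:**
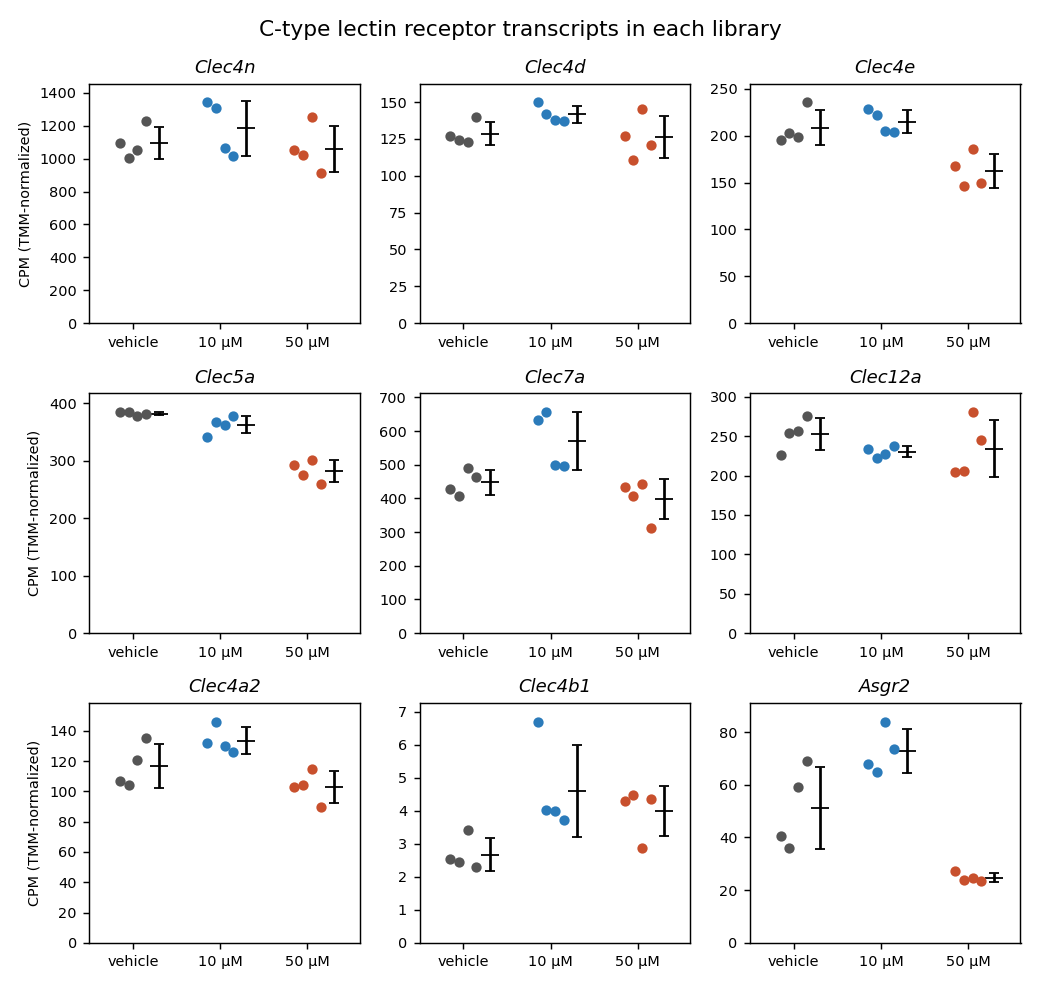
CPM of the 9 tested members in each of the 12 libraries, with 1 panel per gene, 1 point per library and a bar for the mean ± SD (n = 4) of each group. The 50 µM points of *Asgr2*, *Clec4e* and *Clec5a* lie below all points of the other groups, while those of *Clec4n*, *Clec4d* and *Clec12a* overlap with them.

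Apart from the *Asgr* genes, the members lie on chromosome 6 (GRCm38, GENCODE M21). The genes called there are *Clec5a* (chr6:40574894-40585821), *Clec4a2* (chr6:123106428-123143999), *Clec4e* (chr6:123281789-123289870) and *Clec7a* (chr6:129461591-129472779), and *Asgr2* lies at chr11:70092644-70106187. *Clec4b1*, *Clec4a2*, *Clec4n*, *Clec4d* and *Clec4e* stand there in 1 cluster, with *Clec4d* and *Clec4e* separated by 6.5 kb with no gene between. They are transcribed towards each other, and *Clec4e* was called at 50 µM while *Clec4d* was not. The counts of *Clec4e* per count of *Clec4d* in the same library were 1.55, 1.64, 1.62 and 1.69 with vehicle. They were 1.53, 1.56, 1.48 and 1.49 at 10 µM, and 1.33, 1.31, 1.28 and 1.24 at 50 µM. The 50 µM ratios lay below all others, with a mean of 1.29 ± 0.0387 (SD, n = 4) against 1.62 ± 0.0571 with vehicle. This ratio was chosen after the values were seen and is given with no test. It is free of the scaling between libraries.

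**Figure D4:**
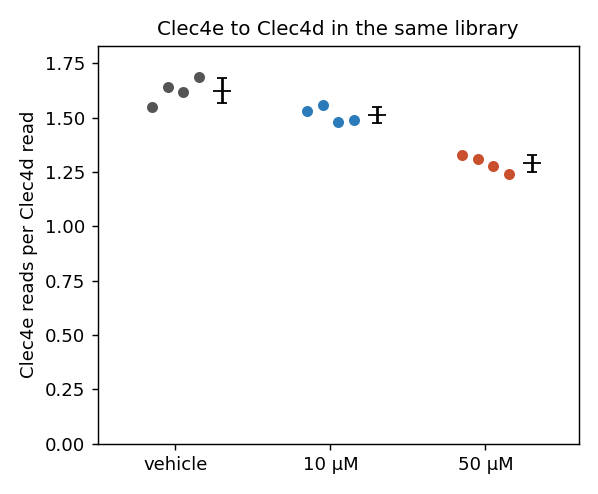
Counts of *Clec4e* divided by counts of *Clec4d* in the same library, with 1 point per library and a bar for the mean ± SD of each group (n = 4). The 50 µM libraries lie between 1.24 and 1.33, below the lowest 10 µM library at 1.48.

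The *Clec4e* to *Clec4d* pair also varied together within groups. After subtraction of group means, their Pearson r over 12 libraries was 0.94 on log2 CPM. For *Clec4d*, *Clec4e* and *Clec4n* the highest library of each group was the same: the fourth with vehicle, the first at 10 µM and the third at 50 µM. These were also the libraries in which CPM was lowest for long relative to short genes (slopes of -0.038, -0.049 and -0.066 log2 units per doubling of length). With an exon length offset in the fit, all 3 calls against vehicle and all 5 between the doses were made again, *Clec4e* with a log2 fold change of -0.35 at 50 µM against vehicle (edgeR adjusted p = 0.0167), and *Clec4d* was called between the doses in addition (adjusted p = 0.044). The fits were also repeated without these 3 libraries, a choice made after the data were seen. The same 3 and 5 calls were made, *Clec4e* with an adjusted p of 0.00172 at 50 µM against vehicle. *Asgr2* at 10 µM, *Clec4b1* at 50 µM and *Clec4d* between the doses were then called as well (adjusted p = 0.0382, 0.0485 and 0.0392).

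The promoters of the 3 genes that fell against vehicle, and of *Clec7a*, are shown to set members called in different comparisons side by side. They run from 250 bases before to 50 bases from the start site (RefSeq, GRCm38.p6), 5′ to 3′ on the strand of the gene. Capitals mark GAGGAA, the core of sites for PU.1, a factor of myeloid genes, and TTGCNNAA, a C/EBP core, on either strand. *Clec4e* is at chr6:123289822-123290121 (minus strand), *Clec5a* at chr6:40585756-40586055 (minus), *Clec7a* at chr6:129472730-129473029 (minus) and *Asgr2* at chr11:70092394-70092693 (plus).
Clec4e: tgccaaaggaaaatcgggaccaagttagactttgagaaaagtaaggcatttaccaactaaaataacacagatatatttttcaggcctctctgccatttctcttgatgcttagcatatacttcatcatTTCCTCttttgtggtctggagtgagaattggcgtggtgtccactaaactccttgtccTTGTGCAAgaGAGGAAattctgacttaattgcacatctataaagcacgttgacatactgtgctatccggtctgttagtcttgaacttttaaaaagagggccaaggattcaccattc
Clec5a: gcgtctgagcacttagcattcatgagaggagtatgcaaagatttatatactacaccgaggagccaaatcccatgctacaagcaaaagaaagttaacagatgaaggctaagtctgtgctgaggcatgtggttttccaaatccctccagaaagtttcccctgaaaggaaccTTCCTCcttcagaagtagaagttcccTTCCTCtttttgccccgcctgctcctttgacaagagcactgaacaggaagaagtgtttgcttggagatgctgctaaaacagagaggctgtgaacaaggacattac
Clec7a: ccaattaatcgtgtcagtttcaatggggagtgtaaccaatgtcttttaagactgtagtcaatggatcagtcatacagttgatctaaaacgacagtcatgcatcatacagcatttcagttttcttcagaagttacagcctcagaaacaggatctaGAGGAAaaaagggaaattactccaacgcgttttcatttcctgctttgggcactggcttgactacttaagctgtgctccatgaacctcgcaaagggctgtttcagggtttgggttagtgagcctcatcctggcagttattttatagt
Asgr2: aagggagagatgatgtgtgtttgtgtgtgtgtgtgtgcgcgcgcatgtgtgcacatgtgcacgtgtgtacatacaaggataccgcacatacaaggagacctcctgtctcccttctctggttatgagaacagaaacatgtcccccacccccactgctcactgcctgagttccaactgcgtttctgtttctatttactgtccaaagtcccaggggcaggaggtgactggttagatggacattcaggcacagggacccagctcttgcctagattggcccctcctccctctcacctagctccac

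In *Clec4e* the PU.1 letters start at -123 and -56 and the C/EBP letters at -66, counted from 0 at the start site, and they do not overlap. *Clec5a* holds the PU.1 letters at -81 and -55, and *Clec7a* holds them at -96. *Asgr2* holds neither, nor TGANTCA, the AP-1 core. Promoters of 9 of the 10 members were in the table used, all but *Clec4n*. With 2 start sites each for *Asgr1* and *Clec7a*, the members have 11 promoters, and the pair of each of these genes overlaps. GAGGAA was found in 8 of the 11 (7 of the 9 genes), against 28.3% of the table's 32851 promoters. TTGCNNAA was found in 3 of 11, against 10.8%, and TGANTCA in 3 of 11, against 7.81%. Of the called members, *Clec4a2* and *Asgr2* lack GAGGAA, while the uncalled *Clec4d*, *Clec12a* and *Clec4b1* hold it. The motifs were chosen after the values were seen, and a match is not a binding site.

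Downstream of the receptors, 21 listed signalling genes were all tested, and 0 passed at 10 µM (edgeR, DESeq2 and limma-voom alike, with 2 at an unadjusted edgeR p under 0.05). At 50 µM against vehicle 1 was higher and 4 were lower, where 7.00% of all genes were called higher and 6.50% lower. *Syk*, the kinase that reads the ITAM, fell by 0.27 (SE 0.08, edgeR adjusted p = 0.0479), from 585 ± 61.6 to 481 ± 32.2 CPM (SD, n = 4), with ranges that overlapped. This call was lost in 7 of the 8 fits without a single library and held without the fourth vehicle library. The phospholipase gene *Plcg2* fell by 0.25, the exchange factor gene *Vav1* by 0.34 and the Src family kinase gene *Lyn* by 0.34 (adjusted p = 0.0371, 0.0073 and 0.00829). The call of *Plcg2* was lost in 6 of those 8 fits and with a replicate block, while those of *Vav1* and *Lyn* were made in all 8. *Malt1*, whose protease acts with CARD9 and BCL10, rose by 0.33 (adjusted p = 0.0141). Without single libraries the number called ranged from 3 to 6, and it was 3 without replicate 1, 2 or 3 of either group.

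Between the doses *Malt1* and *Fgr* rose, and *Vav1*, *Lyn* and *Src* fell, where 7.52% of all genes were called higher and 7.85% lower. The call of *Fgr* was lost in 6 of the 8 fits without a single library, with a replicate block and without a filter on low counts. *Vav1* lost its call without the second library at 50 µM and *Malt1* without the fourth. The ITAM adaptor genes *Fcer1g* and *Tyrobp* passed in no comparison, with edgeR or any alternative. *Fcer1g*, encoding FcRγ, differed by 0.07 at 50 µM against vehicle (SE 0.09, edgeR adjusted p = 0.651). *Tyrobp*, encoding DAP12, differed by 0.21 (SE 0.11, adjusted p = 0.236), and *Card9* by -0.01 (SE 0.18, adjusted p = 0.979). Between the doses *Card9* differed by 0.25 (SE 0.09, adjusted p = 0.0819), and it was called there without a filter on low counts and without the fourth library at 10 µM. The median of the 21 was -0.02 at 50 µM against vehicle and 0.02 against 10 µM. The 5 calls between the doses became 3 without the second or the fourth library at 50 µM.

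Of 13 genes listed as induced through SYK and CARD9, 10 were tested and 0 passed at 10 µM by edgeR, DESeq2 or limma-voom, with 2 at an unadjusted edgeR p under 0.05. At 50 µM against vehicle, the transcription factor genes *Egr2* and *Egr3* rose by 0.63 and 0.41 (edgeR adjusted p = 0.00083 and 0.0155). *Il1b*, encoding interleukin-1β, fell by 0.87 and *Ptgs2*, encoding cyclooxygenase-2, by 1.10 (adjusted p = 0.000448 and 0.000217). Against 10 µM, *Tnf* and *Egr2* rose by 0.68 and 0.46, and *Il1b* and *Ptgs2* fell again by 0.72 and 0.79. The list moved in both directions, and its genes respond to other receptors as well. Over all genes, 7.00% were called higher and 6.50% lower at 50 µM against vehicle, and 7.52% and 7.85% between the doses.

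A further 37 C-type lectin genes were listed and 24 of them tested. At 10 µM, *Mrc1* (the mannose receptor), *Clec10a* and *Mgl2* (galactose-type lectins of macrophages and dendritic cells) rose by 0.62, 0.48 and 0.36 (edgeR adjusted p = 0.0375, 0.0394 and 0.0385). None of the 3 is among the 10 receptors above, of which 0 passed at this dose. All 3 calls were lost without any 1 of the 4 libraries at 10 µM, without the first or second vehicle library, or with a replicate block. Without the third vehicle library *Mrc1* alone passed, and the fit of all 12 libraries lost *Clec10a*. At 50 µM against vehicle 6 rose and 5 fell, where 7.00% of all genes were called higher and 6.50% lower. *Mgl2* increased from 291 ± 16.2 to 632 ± 61.5 CPM (SD, n = 4), a log2 change of 1.12 (SE 0.08, adjusted p = 3.22e-06), and was the most abundant of the 24 per length. *Clec10a*, *Cd69*, *Olr1* and *Clec2i* rose by 0.86, 0.69, 0.64 and 0.63.

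*Clec4a1* and *Clec4a3*, relatives of *Clec4a2*, fell by 0.85 and 0.75 at 50 µM against vehicle (edgeR adjusted p = 0.000492 and 0.000838), where *Clec4a2* itself did not pass. Between the doses all of them fell, *Clec4a1* by 1.08, *Clec4a3* by 1.05 and *Clec4a2* by 0.37, and whether these falls differ in size was not tested. *Mrc1* turned from higher at 10 µM to lower at 50 µM, where it fell by 0.69 against vehicle (adjusted p = 0.00232). Against 10 µM it fell by 1.32 (adjusted p = 1.96e-07). *Cd302*, the second of the 24 per length at 136 TPM, passed only between the doses, where it fell by 0.38 (adjusted p = 0.0111). *Clec10a* and *Mgl2*, like the *Clec4a* genes, are close paralogs among which counting may split reads. Between the doses 6 of the 24 rose and 6 fell, where 7.52% of all genes were called higher and 7.85% lower.

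**Figure D5:**
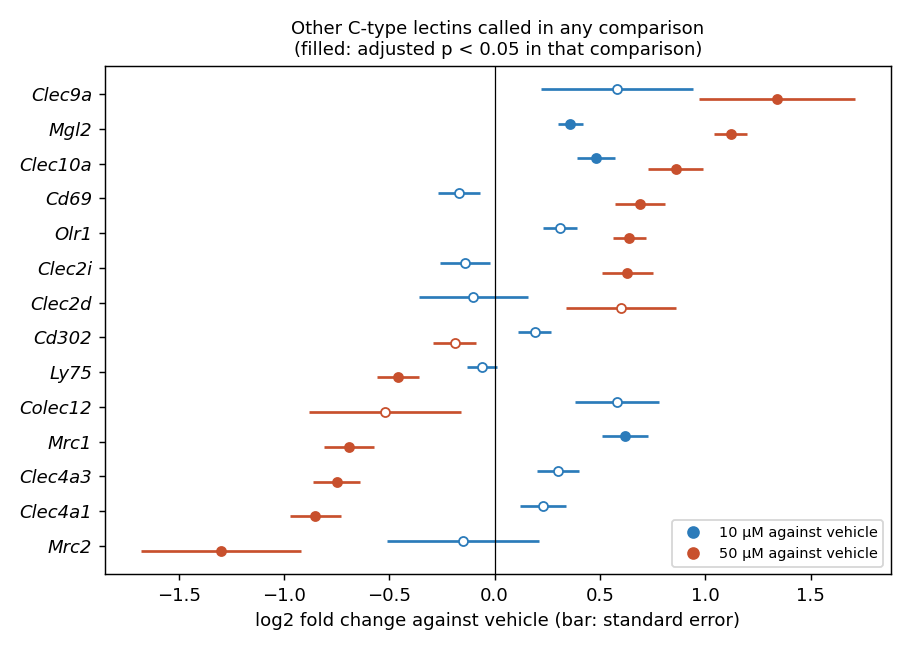
Log2 fold change against vehicle of the 14 other C-type lectin genes that passed in at least 1 of the 3 comparisons, at 10 µM and 50 µM, with bars for the standard error and filled points for an adjusted p under 0.05. *Mgl2* and *Clec10a* are filled above 0 at both doses, and *Mrc1* is filled above 0 at 10 µM and below 0 at 50 µM.

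Markers of the cell types in the culture moved with the same comparisons (edgeR calls). Over all genes, 0.329% were called higher and 0.0806% lower at 10 µM, and 7.00% and 6.50% at 50 µM against vehicle. Between the doses the shares were 7.52% and 7.85%. Of 6 monocyte markers, all tested, 1 (*Fn1*) rose at 10 µM against vehicle (2 by DESeq2), and 4 fell at 50 µM against vehicle and 6 against 10 µM. Their summed level ran from 2544 to 3237 CPM with vehicle, from 3684 to 4754 at 10 µM and from 2217 to 2957 at 50 µM. *Fn1* was the largest part of this sum, with means of 1451, 2554 and 1696 CPM in the same order. Against vehicle, 4 of the 6 estimates were above 0 at 10 µM and 2 (*Ly6c2* and *Cx3cr1*) below. At 50 µM only that of *Fn1* was above 0. Of 12 neutrophil markers, 7 fell at 50 µM against vehicle and 6 against 10 µM, with sums of 21581 to 30130, 20385 to 23434 and 15714 to 21415 CPM. Of 10 macrophage markers, 2 rose at 10 µM against vehicle by edgeR and limma-voom and 5 by DESeq2, and all 10 estimates were above 0, with a median of 0.40. At 50 µM 2 rose and 2 fell against vehicle, and 1 rose and 6 fell against 10 µM, with sums of 1662 to 1846, 1898 to 2167 and 1726 to 1834 CPM. No marker of these 3 lists was at 0 throughout. Their part in the falls of *Asgr2*, *Clec4e*, *Clec5a*, *Clec7a* and *Clec4a2* was not tested.

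Among other cells, all 5 B cell markers rose at 50 µM in both comparisons by edgeR, with sums of 18.3 to 25.4 CPM with vehicle and 36.5 to 56.6 CPM at 50 µM. Of 8 dendritic cell markers, 3 rose and 1 fell at 50 µM against vehicle, and 2 rose and 1 fell against 10 µM. Of the mast cell or basophil, megakaryocyte, eosinophil, erythroid, and T or NK cell lists, *Kit* (lower) and *Pf4* (higher) passed by edgeR, both at 50 µM against vehicle, where DESeq2 called 2 mast cell or basophil markers lower.

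The genes most like each member over the 12 libraries were sought among 12607 genes of at least 1 CPM. For *Asgr2* they were *Ccr2*, the chemokine receptor of monocytes (Pearson r = 0.986, and 0.917 after subtraction of group means), and *Ctsc*, encoding the protease cathepsin C (0.985 and 0.873). For *Clec4e* they were *Rab32* (0.962 and 0.881) and *Emp3* (0.958 and 0.846). For *Clec5a* they were *Rnd3* (0.970 and 0.672) and *Sec62* (0.960 and 0.807), and the lower second value shows how much of this likeness came from the group means.

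For *Clec7a* the most alike was *Tpgs2* (0.930 and 0.897), for *Clec4a2* *Fancl* (0.950 and 0.899) and for *Clec4n* *Gm10123* (0.954 and 0.946). *Clec4d* came closest to *Ccnc* (0.900 and 0.883), *Clec12a* to *Chil1* (0.901 and 0.884) and *Clec4b1* to *B3galnt1* (0.854 and 0.654). These values describe 12 libraries that share 3 culture conditions and differ in depth and length trend. Among the members themselves, *Clec7a* and *Clec4a2* (0.90, and 0.77 after subtraction of group means) were most alike over all libraries, and *Clec12a* with *Clec4b1* least (-0.55 and -0.38).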

How the data were processed

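RNA-seq of 12 bone marrow cultures was analysed, with groups, replicate numbers and doses taken from the labels. The title of the third 10 µM library repeats that of the second, so its library name was used. The authors aligned the reads to mm10 with HISAT2 2.2.1 and used featureCounts 2.0.1 to count them on Ensembl genes (versions from the submitters' processing notes). The deposited values are raw counts per gene, neither normalized nor filtered. The kit was stranded, and the strand setting of the counting is not given in the sources used here.

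A gene was tested if 2 or more of the 12 libraries held over 0.5 CPM, by edgeR 4.0.16 in R 4.3.3 (TMM, glmQLFit, glmQLFTest), each comparison on its 8 libraries. Benjamini-Hochberg adjustment ran over all 14894 genes. CPM, TPM (exon lengths and positions of GENCODE M21, GRCm38), ratios and correlations were computed from the counts (prior count 2 for correlations). Intervals are edgeR's estimate with its standard error. The scripts were tested on simulated counts. No library was a copy of another. Same-numbered libraries did not deviate together (r from -0.242 to 0.142), and differently numbered ones ran from -0.255 to 0.272. Libraries also differed in length trend, which can mask a pairing, so r cannot show whether replicate numbers share an animal. The main fits were unpaired, with a replicate block as an alternative.

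Alternatives were DESeq2 1.42.0, limma-voom (limma 3.58.1), a fit of all 12 libraries, edgeR on DESeq2 size factors, a minimum of 10 counts in each library, the unfiltered table, a replicate block, an offset for exon length (lowess, span 0.3) and leaving out each library. All 10 members are named. From the lists, genes past the threshold are named (at most 8 of the signalling genes, 8 of the other lectins with the 3 of highest TPM, and 6 of the induced genes), with *Fcer1g*, *Tyrobp*, *Syk* and *Card9*. The members and lists were chosen with earlier results of these data known. The 95% interval and the floor of 3 counts cover different things: the former the spread between libraries, the latter counting error only.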

Additional observations from a re-analysis of the deposited data

Results flagged for a closer look

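Groups of 4 libraries were searched for a highest or lowest library far from the other 3, by a Dixon test that chance passes in about 1 of 20 groups. Of 27 groups (9 members in 3 groups), 2 were found, both of *Clec4b1*. The first 10 µM library held 6.70 CPM, against 3.71 to 4.02 CPM in the other 3, and the gap was 0.897 of the group's range, past the critical value for 4 libraries. The third 50 µM library held 2.86 CPM, against 4.30 to 4.47 CPM in the other 3, and the gap was 0.894 of the range. Both libraries are those with the lowest slope of CPM on exon length in their group. With an exon length offset in the edgeR fit *Clec4b1* differed from vehicle by 0.71 at 10 µM (adjusted p = 0.191) and 0.51 at 50 µM (adjusted p = 0.144). *Clec4b1* is the member with the fewest counts among those tested.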

How the results depend on the processing

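Of 459 repeats of the fold changes of single members, 443 kept direction and side of the threshold, 6 passed newly, 2 no longer passed and 8 changed sign. *Asgr2* and *Clec5a* at 50 µM against vehicle, and all 5 members called between the doses, passed in all 17 alternatives. *Clec4e* against vehicle passed in 15, with adjusted p from 0.00172 to 0.0749. The 8 changes of sign concern members that did not pass. With single libraries left out, *Clec4d* ranged from -0.10 to 0.03 and *Clec4n* from -0.14 to 0.03 (50 µM against vehicle), and *Clec12a* from -0.07 to 0.09 and *Clec4b1* from -0.29 to 0.05 (50 against 10 µM). Without the library of lowest length slope in each group, the last 2 were -0.06 and 0.17. That setting, chosen after the data were seen, also gave 1 member at 10 µM in place of 0 and 8 signalling genes between the doses in place of 5. DESeq2 and the exon length offset each gave 9 in the latter. *Clec4d* between the doses passed with that offset (adjusted p = 0.044).

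Leaving out single libraries gave 0 to 3 other lectins at 10 µM, 3 to 6 signalling genes at 50 µM against vehicle and 3 to 6 between the doses. With a replicate block, 0 other lectins in place of 3 passed at 10 µM, and the members called stayed at 0, 3 and 5. Over all genes at 10 µM against vehicle, 61 passed, against 250 with DESeq2, 150 without a filter, 118 with all 12 libraries, 102 with the length offset, 147 without the libraries of lowest slope, 3 with the block and 4 to 122 without single libraries. At 50 µM against vehicle 2010 passed, and 1248 to 2689 without single libraries. The cause of these shifts was not tested. Depth limits *Asgr1*, and *Clec4b1* with at most 185 counts a library.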
